A study of Mus musculus with 12 samples.

Results

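The genes described here are the components of NF-kappaB and Toll-like receptor signalling in mouse liver. They are 48 genes named in a list by function: NF-kappaB subunits, the IkappaB family, feedback regulators, receptors, ligands, adaptors, kinases and adhesion targets, with chemokines left out. A probe set named for the gene was found for 42 of the 48, among 15780 named probe sets on the array. The other 6, Nfkb1, Tlr5, Irak4, Traf3, Ripk2 and Chuk, are not analysed here. Each of the 42 had 1 probe set, so no value is a choice between probe sets. The list was drawn up by function and not by a measured value.

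Liver RNA was hybridised to 12 arrays, 3 in each of 4 groups as the labels give them. The titles number the arrays of each group 1 to 3 and do not say whether arrays of the same number share an animal. The main tests took all arrays as independent. Knockout mice with HGF lacked Met, the receptor of hepatocyte growth factor (HGF), in hepatocytes and had been exposed for 2 h to 2 µg of recombinant mouse HGF given into the peritoneum. Unstimulated knockout mice had the same genotype and no HGF. Control mice with HGF and unstimulated control mice carried the loxP-flanked Met alleles without the deletion. The Met alleles of the knockouts were loxP-flanked as well, and Cre came from an Alfp-Cre transgene (albumin and alpha-fetoprotein promoter and enhancer, active before birth) or from Alb-Cre (albumin promoter, active only after birth), both of which act in hepatocytes, so that Kupffer and endothelial cells, for example, keep Met. The labels do not say which of the transgenes an array represents, give no age, strain or sex, and mention both NaCl injection and sampling before injection, so an effect of HGF and one of injection or handling cannot be told apart. Arrays 1 to 6 were controls and arrays 7 to 12 knockouts, so genotype and array order cannot be told apart either. Values below are log2(intensity + 1) of the deposited probe set intensities, and differences are log2 differences of these values, so those of genes near background come out too small.

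In resting cells the NF-kappaB dimers, built from the subunits that Rela, Rel, Relb, Nfkb1 and Nfkb2 encode, are held in the cytoplasm by IkappaB proteins. Toll-like receptors and the interleukin 1 receptor signal through the adaptor Myd88 and the IRAK kinases, and tumour necrosis factor receptors through TRAF and cIAP proteins. Both routes lead to the IkappaB kinase complex, which marks IkappaB for destruction and frees the dimers to enter the nucleus. Many of the genes they switch on encode their own inhibitors, among them Nfkbia and Tnfaip3, so the transcripts of these inhibitors are widely used as a readout of the pathway. In liver the pathway operates in hepatocytes and in Kupffer, endothelial and immune cells, and it drives part of the acute phase response.

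Met levels overlapped between all 4 groups. Met lay at 6.29 to 7.40 in knockouts with HGF, 6.68 to 7.18 in unstimulated knockouts, 6.59 to 7.02 in controls with HGF and 6.62 to 6.84 in unstimulated controls. The sources used here do not give the part of the transcript that the probe set covers, and a probe set outside the deleted part checks nothing, so groups are named by their labels. For the genes described here, both knockout replicate 2 arrays differed from the control group with the same HGF label. The unstimulated one was as high as the controls with HGF, and the one labelled HGF as low as the unstimulated controls. Whether either level goes with the loss of Met in hepatocytes was not tested. Averaged over the 42 measured genes, knockouts with HGF were at 5.14, 4.36 and 6.87 and unstimulated knockouts at 4.55, 6.96 and 4.41. Whether the labels of the 2 replicate 2 arrays were exchanged was not tested. An exchange would change what the knockout differences and the interaction mean, and results that rest on these arrays are given with and without them. Of 8 hepatocyte markers, 7 were measured and all passed the filter, with mean log2 levels of 13.85 to 13.90, 13.82 to 13.87, 13.85 to 13.90 and 13.89 to 13.93 in the groups in the same order.

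Most of these genes had higher transcript levels in control livers with HGF than in unstimulated control livers. Their replicates spread less in the control groups than in the knockout groups. On all 3 arrays with HGF, 35 of the 42 measured genes lay above all 3 arrays without it, and 0 lay below. Among all named probe sets 10.6% lay above and 15.2% below in this way. The difference was at least 1 for 27 of the 42, against 2.14% of all named probe sets. The median difference was 2.66 over the 42 genes and -0.03 over all named probe sets. Knockout livers did not separate by their HGF label for these genes. In whole liver, fewer cells of a type and less RNA per cell cannot be told apart.

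The test of these differences turned on how the spread was estimated. With 1 spread for all 4 groups, limma called 0 of the 34 genes that passed the filter on low values (a log2 value of at least 4 on at least 3 arrays) at an adjusted p under 0.05, and 20 of 6683 tested probe sets (0.299%) as higher with HGF. At an unadjusted p under 0.05 there were 30 of the 34, and the smallest adjusted p among them was 0.0722. Counts at an unadjusted p, here and below, come without the share over all tested probe sets. They are therefore not a result about these genes. With the control groups alone, limma called 28 of the 34 as higher and 0 as lower, where 6.79% of tested probe sets were called as higher and 5.19% as lower. Without the filter it called 29 of the 42, the 28 and Tlr3, against 2.98% of probe sets. Leaving out each control array in turn left 25 to 28 of the 34. The median SD of the 42 genes was 1.47 in knockouts with HGF, 1.38 in unstimulated knockouts, 0.27 in controls with HGF and 0.16 in unstimulated controls. Over the tested probe sets it was 0.21, 0.24, 0.19 and 0.11 in the same order, so these genes spread more than most in every group. A gene described as called higher passed limma with the control groups alone and did not pass with all 4 groups. Of the 28, 11 lay below the filter value of 4 on all 3 unstimulated control arrays (Nfkb2, Rel, Relb, Nfkbib, Nfkbie, Tnfaip3, Tlr2, Cd14, Il1b, Irak3 and Map3k8), so their baseline was not measured well above background. With a pseudocount of 16 in place of 1 the HGF difference in controls was more than 1.5 times smaller for Relb (3.08), Nfkb2 (1.82), Map3k8 (1.72), Irak3 (1.40), Rel (1.16), Nfkbib (0.45) and Tnfrsf1b (0.33).

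**Figure D1:**
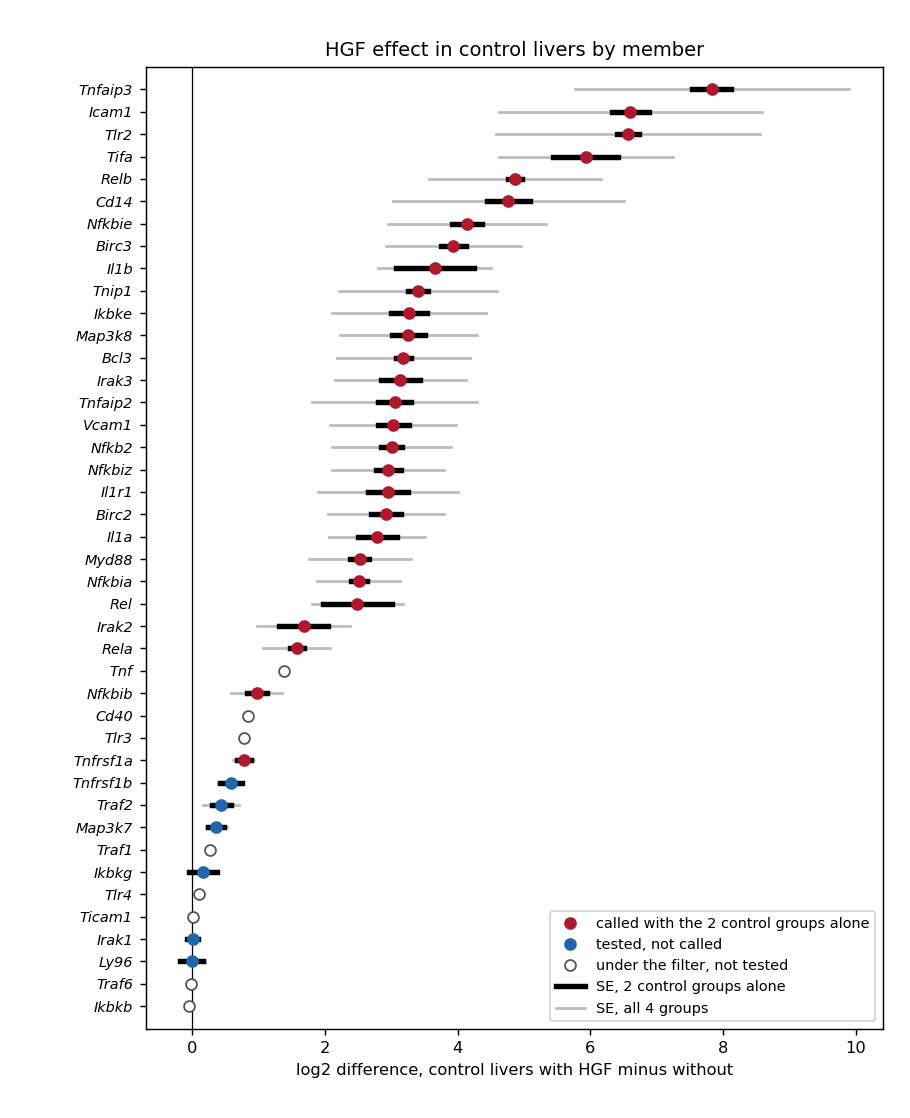
The log2 difference between control livers with and without HGF (3 arrays each) for each of the 42 measured genes, ordered by size, with the SE from limma on the control groups alone (thick bars) and on all 4 groups (thin grey bars). Tnfaip3, Icam1, Tlr2 and Tifa lie farthest to the right, the 28 genes called with the control groups alone are in red, and open circles are genes under the filter, which have no SE.

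The neutrophil genes S100a8 and S100a9 were high on the same arrays. Of 10 neutrophil markers, 8 had a named probe set and 2 passed the filter, S100a8 and S100a9. Csf3r, Cxcr2, Mpo, Elane, Ngp and Camp did not pass, and none was at 0. S100a9 was at 7.27, 3.06 and 9.49 in knockouts with HGF, 4.29, 9.51 and 3.74 in unstimulated knockouts, 9.51, 10.74 and 8.84 in controls with HGF and 4.70, 4.25 and 3.33 in unstimulated controls. Knockout replicates 3 with HGF and 2 without were again high, and replicate 1 with HGF lay between. The summed intensity of the 8 markers was 40.2 to 1257 in knockouts with HGF, 56.2 to 1269 in unstimulated knockouts, 786 to 2849 in controls with HGF and 49.3 to 106 in unstimulated controls. On the controls with HGF 95.2% to 98.0% of that sum came from S100a8 and S100a9. Of the other 6, Csf3r and Ngp were higher without overlap in controls with HGF than in unstimulated controls, and Cxcr2, Mpo, Elane and Camp overlapped. Among all named probe sets 10.6% were higher without overlap in this comparison. The part of these markers in the levels of Tlr2, Cd14, Il1b and other genes that leukocytes also express was not tested. The 10 Kupffer cell and macrophage markers all passed the filter, with summed intensities of 2641 to 3464 in controls with HGF and 3257 to 4886 in unstimulated controls. Those of 7 sinusoidal endothelial markers were 1158 to 1247 in controls with HGF and 1563 to 1600 in unstimulated controls. The macrophage sums overlapped between the control groups, and the endothelial sums were lower with HGF, as were 5 of the 7 endothelial markers without overlap. Of all named probe sets, 15.2% were lower without overlap. Among the endothelial markers Lyve1 lay the other way. It was at 7.17, 5.71 and 5.94 in controls with HGF and at 3.94, 3.38 and 3.66 in unstimulated controls. Of the 10 macrophage markers, 1 was higher with HGF without overlap (Marco), 1 was lower (Vsig4) and 8 overlapped. These macrophage counts were near the shares of all named probe sets. Marco, a macrophage scavenger receptor gene, was at 6.07, 6.62 and 6.14 in controls with HGF and at 4.74, 4.31 and 3.01 in unstimulated controls. Vsig4 was at 8.51, 8.78 and 8.66 in controls with HGF and at 9.56, 9.39 and 9.06 in unstimulated controls.

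The promoters of these genes were searched for the kappaB consensus, the DNA sequence that NF-kappaB dimers bind, on both strands. The RefSeq promoter table (GRCm38.p6, 250 bases before to 50 after each start) held 48 promoters for 37 of the 48 genes. Of these 37 genes, 12 (32.4%) held at least 1 match, against 6.55% of all 27025 genes in the table. Of the 33 that were also measured, 11 held a match. The control groups did not overlap, with HGF higher, for all 11 and for 18 of the 22 measured genes without a match. The same was so for 35 of all 42 measured genes and for 10.6% of all named probe sets. Whether a match goes with the HGF difference was not tested. A match says only that these letters stand in the window. The 5 promoters below are shown because they belong to an NF-kappaB subunit, the IkappaB-alpha gene, both parts of the Tnfaip3 and Tnip1 feedback pair and a Toll-like receptor, all called higher with HGF in controls; capitals mark the kappaB consensus, on either strand, and each runs 5′ to 3′ on the strand of its gene.
Nfkb2 promoter: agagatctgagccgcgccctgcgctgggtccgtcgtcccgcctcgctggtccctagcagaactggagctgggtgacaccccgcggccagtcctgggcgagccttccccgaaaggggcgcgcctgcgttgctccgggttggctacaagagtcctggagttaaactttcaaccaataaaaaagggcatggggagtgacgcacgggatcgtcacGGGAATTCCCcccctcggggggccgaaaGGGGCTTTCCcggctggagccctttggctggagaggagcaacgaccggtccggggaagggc
Nfkbia promoter: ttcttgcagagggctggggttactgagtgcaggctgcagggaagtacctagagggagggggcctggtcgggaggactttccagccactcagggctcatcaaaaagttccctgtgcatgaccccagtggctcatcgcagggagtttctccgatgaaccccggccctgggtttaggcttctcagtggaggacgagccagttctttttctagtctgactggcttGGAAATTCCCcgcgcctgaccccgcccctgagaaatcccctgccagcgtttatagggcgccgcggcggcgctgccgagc
Tnfaip3 promoter: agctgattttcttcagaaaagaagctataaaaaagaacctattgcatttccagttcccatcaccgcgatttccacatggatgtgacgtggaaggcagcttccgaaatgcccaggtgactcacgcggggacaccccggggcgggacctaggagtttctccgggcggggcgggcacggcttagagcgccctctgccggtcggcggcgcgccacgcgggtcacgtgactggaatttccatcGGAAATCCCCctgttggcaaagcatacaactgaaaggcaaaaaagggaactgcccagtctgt
Tnip1 promoter: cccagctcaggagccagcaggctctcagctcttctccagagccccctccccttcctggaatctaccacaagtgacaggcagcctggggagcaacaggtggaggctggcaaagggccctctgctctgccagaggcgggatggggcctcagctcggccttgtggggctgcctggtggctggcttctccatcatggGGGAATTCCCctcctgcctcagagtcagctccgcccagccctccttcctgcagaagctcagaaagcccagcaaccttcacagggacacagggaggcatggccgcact
Tlr2 promoter: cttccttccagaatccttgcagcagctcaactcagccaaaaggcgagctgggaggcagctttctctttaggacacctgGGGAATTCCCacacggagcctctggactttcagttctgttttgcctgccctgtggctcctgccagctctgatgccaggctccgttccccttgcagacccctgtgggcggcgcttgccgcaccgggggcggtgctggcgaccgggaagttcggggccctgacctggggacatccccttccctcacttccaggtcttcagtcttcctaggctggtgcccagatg
In the Nfkb2 window (chr19:46304487-46304786, plus strand) the matches begin at -39 and -11 from the start of transcription. The Nfkbia window is chr12:55492598-55492897 (minus strand) with a match at -29, and the Tnfaip3 window is chr10:19015361-19015660 (minus strand) with a match at -12. The Tnip1 window is chr11:54962891-54963190 (minus strand) with a match at -57, and the Tlr2 window chr3:83841559-83841858 (minus strand) with a match at -172. The promoter of Icam1 in the table held no match.

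All 4 measured NF-kappaB subunit genes were called higher with HGF in control livers. Relb was at 7.44, 7.30 and 7.18 with HGF and at 2.45, 2.35 and 2.53 without. Relb encodes the partner of the processed Nfkb2 product in the noncanonical branch, and its groups lay far apart, with a difference of 4.86 (SE 0.11 with the control groups alone, adjusted p = 8.30e-06 by limma, and SE 1.30, adjusted p = 0.103 with all 4 groups). Nfkb2 was at 6.07, 6.35 and 5.83 with HGF and at 3.09, 3.21 and 2.94 without. Nfkb2 encodes the precursor subunit of that branch, and its control groups did not overlap either. Rela was at 9.61, 9.71 and 9.45 with HGF and at 8.08, 7.91 and 8.07 without. Rela, the main transactivating subunit, had the smallest difference of the 4, 1.57 (SE 0.11, adjusted p = 4.13e-04 with the control groups alone). Rel was at 4.11, 6.10 and 4.15 with HGF and at 2.19, 2.23 and 2.49 without. Replicate 2 stood above the other HGF arrays for Rel, which encodes c-Rel, and its difference of 2.48 was called at an adjusted p = 0.0275 by limma on the control groups alone.

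The 5 IkappaB family genes, whose products hold NF-kappaB in check or act with it in the nucleus, were all called higher. Nfkbia was at 11.10, 11.39 and 11.06 with HGF and at 8.66, 8.62 and 8.74 without. Nfkbia encodes IkappaB-alpha, the inhibitor that is resynthesised first after activation, and it differed by 2.51 (SE 0.12, adjusted p = 9.28e-05 with the control groups alone). Nfkbie was at 7.82, 7.72 and 7.04 with HGF and at 3.52, 3.46 and 3.18 without. Bcl3 was at 10.59, 10.37 and 10.43 with HGF and at 7.43, 7.15 and 7.27 without. Bcl3 and Nfkbiz encode nuclear members that modulate transcription by NF-kappaB dimers. Nfkbiz was at 7.37, 7.82 and 7.35 with HGF and at 4.86, 4.30 and 4.52 without. Nfkbib, which encodes IkappaB-beta, lay at 3.98 to 4.41 with HGF and at 3.04 to 3.35 without, the smallest difference of the family (0.97, SE 0.15).

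The feedback regulators gave the largest difference of the list. Tnfaip3 was at 9.85, 10.82 and 9.67 with HGF and at 2.31, 2.38 and 2.15 without. Tnfaip3 encodes a ubiquitin-editing enzyme that shuts off signalling upstream of the IkappaB kinases, and its difference was 7.83 (SE 0.29, adjusted p = 5.69e-05 with the control groups alone, and SE 2.07, adjusted p = 0.102 with all 4 groups). Tnip1 was at 8.65, 8.67 and 8.19 with HGF and at 5.15, 5.19 and 4.96 without. Tnip1 encodes a partner protein of Tnfaip3, and its replicates lay close together in both groups. Tnfaip2 was at 9.48, 9.32 and 8.54 with HGF and at 6.19, 6.09 and 5.92 without. Tnfaip2, named for its induction by tumour necrosis factor, differed by 3.05 (SE 0.25).

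Among the 9 measured receptors, Tlr2, Cd14, Il1r1 and Tnfrsf1a were called higher, and the other 2 of the 6 tested were not. Tlr2 was at 9.34, 9.37 and 9.31 with HGF and at 3.13, 2.50 and 2.70 without. Tlr2, a receptor of bacterial lipopeptides, thus differed by 6.56 (SE 0.17, adjusted p = 8.39e-06 with the control groups alone, and SE 1.99, adjusted p = 0.127 with all 4 groups), and its 3 arrays with HGF lay close together. Cd14 was at 8.26, 8.16 and 7.14 with HGF and at 3.41, 3.06 and 2.81 without. Cd14 encodes the coreceptor that hands lipopolysaccharide to Tlr4, and its difference was 4.76 (SE 0.32). The control groups overlapped for the lipopolysaccharide receptor itself: Tlr4 lay at 2.98 to 3.11 with HGF and at 2.86 to 3.07 without, under the filter value on every array. Its coreceptor Ly96 lay at 3.95 to 4.37 with HGF and at 3.96 to 4.43 without. Il1r1 was at 9.68, 9.25 and 8.99 with HGF and at 7.0, 6.09 and 5.98 without. Il1r1, the signalling receptor of interleukin 1, differed by 2.95 (SE 0.30). The tumour necrosis factor receptor gene Tnfrsf1a had a small difference, 0.77, but the smallest adjusted p of the list with all 4 groups (0.0722 by limma). Tnfrsf1b differed by 0.58 and was not called (adjusted p = 0.0693 with the control groups alone), and Tlr3 and Cd40 differed by 0.77 and 0.84 below the filter.

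Both interleukin 1 ligand genes were called higher, and Tnf did not pass the filter. Il1b was at 5.50, 7.85 and 7.20 with HGF and at 3.67, 2.73 and 3.19 without. Il1a was at 7.03, 7.98 and 6.97 with HGF and at 4.33, 4.82 and 4.47 without. The replicates with HGF spread more for Il1b than for most of the list (SD 1.21), with replicate 1 lowest, and its difference was 3.65 (SE 0.59, adjusted p = 0.0109 with the control groups alone). Tnf, the gene of tumour necrosis factor, lay at 3.56 to 5.14 with HGF and at 2.61 to 2.99 without, so its control groups did not overlap, but it was not tested.

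Of the 8 measured adaptors, Tifa, Myd88, Birc2 and Birc3 were called higher. Tifa was at 10.39, 10.34 and 10.03 with HGF and at 5.56, 3.65 and 3.77 without. Tifa encodes an adaptor that joins TRAF proteins, and its difference of 5.93 (SE 0.49) was the largest of the adaptors, with unstimulated replicate 1 standing above the other unstimulated controls. Myd88 was at 9.01, 8.87 and 8.58 with HGF and at 6.14, 6.38 and 6.37 without. Myd88, the adaptor shared by the interleukin 1 receptor and nearly all Toll-like receptors, differed by 2.52 (SE 0.14). Birc3 was at 9.82, 9.47 and 9.08 with HGF and at 5.61, 5.53 and 5.43 without. Birc2 was at 9.55, 9.04 and 8.69 with HGF and at 6.22, 6.31 and 6.01 without. Birc2 and Birc3 encode the cIAP ubiquitin ligases of the tumour necrosis factor receptor complexes, and they differed by 2.92 and 3.93. The TRAF genes were not called: Traf2 differed by 0.43 (adjusted p = 0.104 by limma with the control groups alone), and Traf1, Traf6 and the adaptor gene Ticam1 lay below the filter, with differences of 0.27, -0.02 and 0.00.

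Of the 8 measured kinases, 7 were tested, and Ikbke, Map3k8, Irak2 and Irak3 were called higher. Ikbke was at 10.24, 10.10 and 9.51 with HGF and at 7.10, 6.70 and 6.25 without. Map3k8 was at 5.36, 6.19 and 5.54 with HGF and at 2.73, 2.17 and 2.43 without. Ikbke encodes the inducible IkappaB kinase relative and Map3k8 a kinase that links the pathway to ERK, and they differed by 3.27 (SE 0.27) and 3.26 (SE 0.25). Irak3 was at 5.74, 5.02 and 4.56 with HGF and at 1.77, 1.99 and 2.16 without. Irak3, an IRAK family member that dampens Toll-like receptor signalling, differed by 3.13 (SE 0.29), and Irak2, a kinase of the Myd88 complex, by 1.68 (SE 0.37, adjusted p = 0.0325 by limma with the control groups alone). Irak1, a core kinase of the receptor complexes, lay at 6.83 to 6.94 with HGF and at 6.85 to 6.91 without, Ikbkg, the regulatory subunit of the IkappaB kinase complex, at 7.02 to 7.83 and 7.23 to 7.40, and Ikbkb, a catalytic subunit, at 3.44 to 3.52 and 3.42 to 3.61 below the filter. Map3k7, the kinase upstream of that complex, differed by 0.36 (SE 0.12, adjusted p = 0.100), with control groups that did not overlap.

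The adhesion genes, classical NF-kappaB targets on endothelium and hepatocytes, were both called higher. Icam1 was at 11.13, 11.41 and 10.70 with HGF and at 4.91, 4.58 and 3.95 without. Icam1, which binds leukocyte integrins, differed by 6.60 (SE 0.28, adjusted p = 8.31e-05 with the control groups alone, and SE 1.98, adjusted p = 0.127 with all 4 groups). Vcam1 was at 7.50, 7.89 and 7.26 with HGF and at 4.96, 4.33 and 4.27 without. Vcam1 differed by 3.03 (SE 0.24), with control groups that did not overlap.

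A wider set of 66 genes of the pathway outside the list was read beside it, of which 60 had a named probe set and 30 passed the filter. With the control groups alone, limma called 13 of the 30 as higher with HGF and 1 as lower, where 6.79% and 5.19% of tested probe sets were called, and with all 4 groups 0. Over all 60 the median difference was 0.23, and the control groups did not overlap for 31 with HGF higher and for 4 with HGF lower, against 10.6% and 15.2% of all named probe sets. The largest differences were those of the target genes Ier3 (4.57), Gadd45b (4.27) and Irf1 (3.84) and of Il1rn (4.27), which encodes the interleukin 1 receptor antagonist. Lbp, the gene of the plasma protein that carries lipopolysaccharide to Cd14, differed by 2.55. The gene called lower was Tradd (-0.65), an adaptor of the tumour necrosis factor receptor. In the other 3 comparisons and the interaction limma called 0 of the 30 with all 4 groups.

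**Figure D2:**
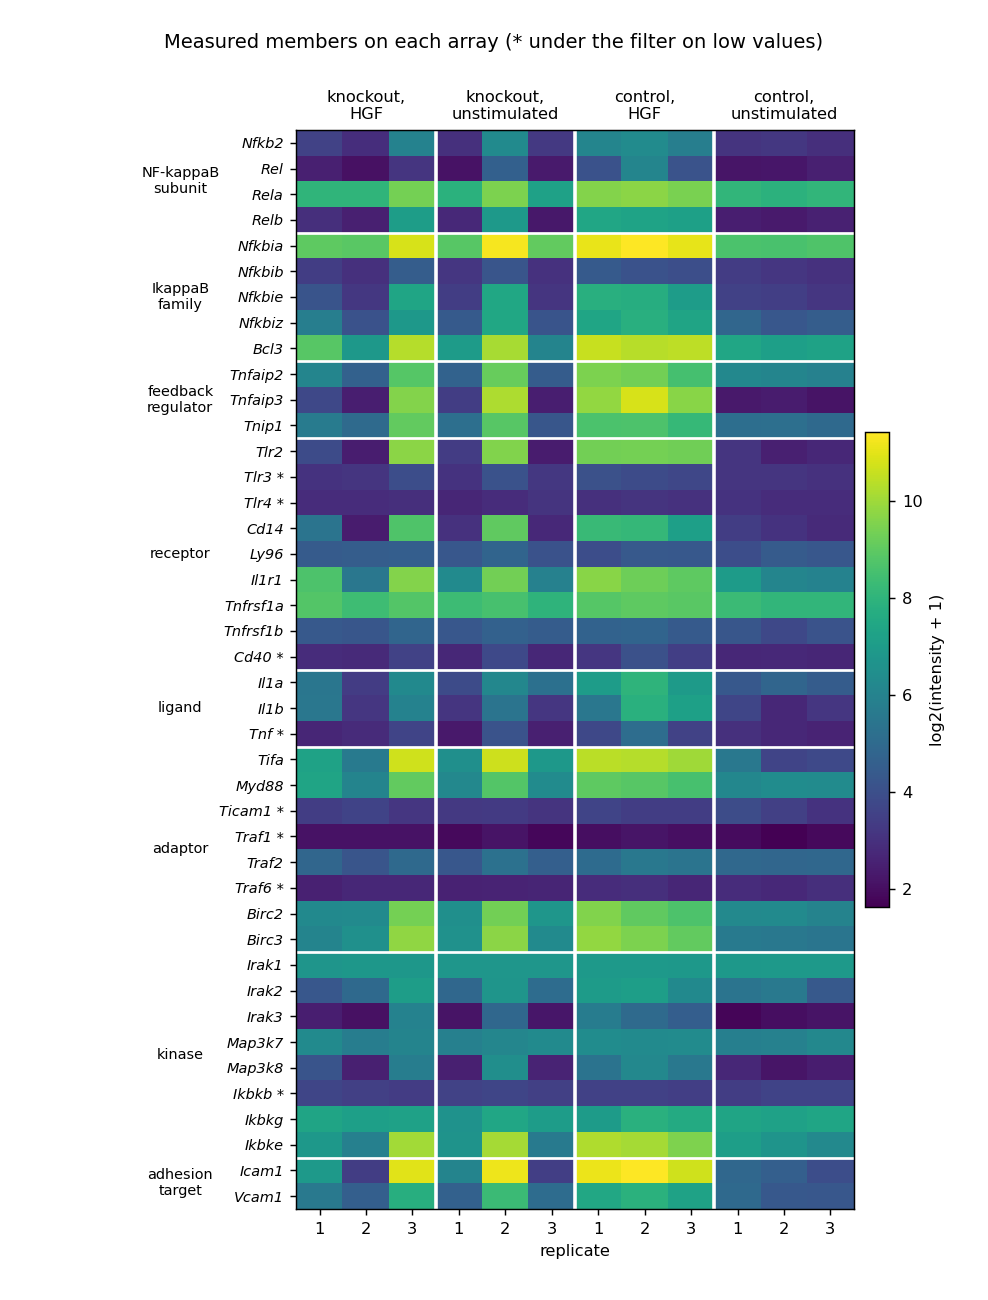
Log2(intensity + 1) of the 42 measured genes (rows, by role) on each of the 12 arrays (columns, replicates 1 to 3 of each group). Replicate 3 of the HGF-treated knockouts and replicate 2 of the unstimulated knockouts resemble the 3 control arrays with HGF, and Irak1 spans only 6.75 to 6.94 over the 12 arrays.

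In knockout livers the same genes were high on single arrays of each group. Averaged over the 42 genes, the level was 5.14, 4.36 and 6.87 in knockouts with HGF (replicates 1 to 3), 4.55, 6.96 and 4.41 in unstimulated knockouts, 6.93, 7.16 and 6.71 in controls with HGF and 4.64, 4.44 and 4.39 in unstimulated controls. Unstimulated replicate 2 was the highest of its group for 39 of the 42 genes, against 32% of all named probe sets, and replicate 3 with HGF was the highest of its group for 36 of the 42, against 34.8%. The 3 arrays with HGF therefore overlapped the 3 without for each of the 42 genes; among all named probe sets 4.16% lay higher without overlap and 2.44% lower. The median HGF difference in knockouts was 0.12 over the 42, with a range of -0.45 (Rel) to 0.97 (Il1b); with a pseudocount of 16 these were -0.24 and 0.59. Limma called 0 of the 34 tested genes and 0% of the 6683 tested probe sets, with all 4 groups or the knockout groups alone. At an unadjusted p under 0.05 there was 1 of the 34 with all 4 groups and 0 with the knockout groups alone.

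**Figure D3:**
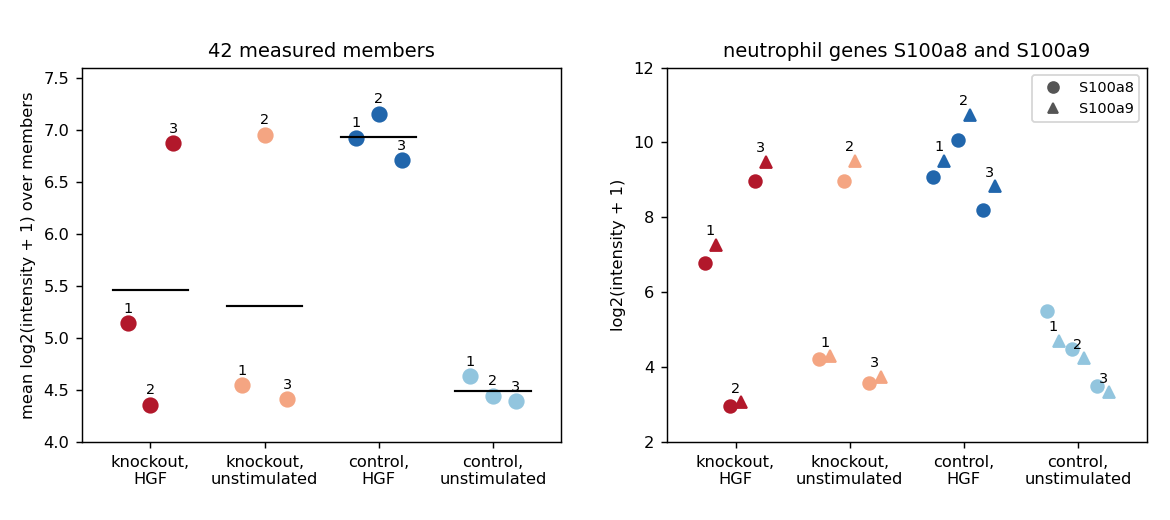
Mean log2(intensity + 1) over the 42 measured genes on each array (left; digits are replicate numbers, lines are group means) and the levels of the neutrophil genes S100a8 and S100a9 on the same arrays (right; digits mark the S100a9 points). Knockout replicate 3 with HGF and knockout replicate 2 without it lie at the level of the controls with HGF in both panels, and knockout replicate 1 with HGF lies between the groups.

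Among the subunits in knockouts, Relb was at 2.95, 2.51 and 7.08 with HGF and at 2.77, 6.93 and 2.26 without. Nfkb2 was at 3.57, 2.92 and 5.99 with HGF and at 3.003, 6.33 and 3.27 without. Rela was at 8.02, 8.05 and 9.38 with HGF and at 7.90, 9.48 and 7.25 without. For each of these genes replicate 3 with HGF and replicate 2 without were the high arrays. Rel was at 2.51, 2.07 and 3.15 with HGF and at 2.09, 4.65 and 2.34 without. For c-Rel, HGF-treated replicate 3 lay below every control with HGF, while unstimulated replicate 2 lay within their range. In the IkappaB family, Nfkbia was at 8.999, 8.91 and 10.81 with HGF and at 8.85, 11.27 and 9.05 without. Nfkbie was at 4.19, 3.21 and 7.37 with HGF and at 3.40, 7.48 and 3.14 without. The same arrays were high, and the other 4 lay within 1 of the unstimulated controls for both genes. Nfkbiz was at 5.80, 4.09 and 6.84 with HGF and at 4.42, 7.44 and 4.16 without. Bcl3 was at 8.87, 6.84 and 10.31 with HGF and at 6.995, 10.15 and 6.05 without. For these nuclear members replicate 1 with HGF lay between the low and the high arrays.

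Of the feedback regulators in knockouts, Tnfaip3 was at 3.74, 2.44 and 9.59 with HGF and at 3.41, 10.22 and 2.45 without. Tnip1 was at 5.69, 5.03 and 9.07 with HGF and at 5.19, 8.89 and 4.24 without. On replicate 1 with HGF these genes lay much nearer to the unstimulated controls than to the controls with HGF. Tnfaip2 was at 6.09, 4.68 and 8.84 with HGF and at 4.70, 9.15 and 4.47 without. On replicate 2 with HGF and replicates 1 and 3 without, Tnfaip2 was lower than on any control array. Of the receptors, Tlr2 was at 3.86, 2.40 and 9.73 with HGF and at 3.37, 9.55 and 2.36 without. Cd14 was at 5.38, 2.36 and 8.72 with HGF and at 3.02, 9.02 and 2.75 without. Il1r1 was at 8.69, 5.49 and 9.61 with HGF and at 6.32, 9.33 and 5.93 without. Replicate 1 with HGF lay above every unstimulated control for all of these, by more for Cd14 and Il1r1 than for Tlr2. Of the ligands, Il1b was at 5.52, 3.18 and 5.95 with HGF and at 3.15, 5.39 and 3.19 without. Il1a was at 5.47, 3.35 and 6.29 with HGF and at 3.88, 6.15 and 5.23 without. Both high knockout arrays lay below every control with HGF for Il1a, and below replicates 2 and 3 of those controls for Il1b.

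Of the adaptors in knockouts, Tifa was at 7.29, 5.67 and 10.69 with HGF and at 6.49, 10.68 and 6.83 without. All 6 values of Tifa lay above those of every unstimulated control. Myd88 was at 7.33, 6.03 and 9.07 with HGF and at 6.20, 8.78 and 6.33 without. Birc3 was at 6.05, 6.56 and 9.78 with HGF and at 6.56, 9.73 and 6.31 without. Birc2 was at 6.28, 6.32 and 9.38 with HGF and at 6.52, 9.32 and 6.76 without. Birc3 too lay above every unstimulated control on all 6 arrays, and for both cIAP genes the same 2 arrays stood well above the other 4. Of the kinases, Ikbke was at 6.85, 5.89 and 10.06 with HGF and at 6.67, 10.08 and 5.68 without. Map3k8 was at 4.18, 2.49 and 5.78 with HGF and at 2.48, 6.45 and 2.59 without. Irak3 was at 2.47, 2.05 and 5.98 with HGF and at 2.15, 4.91 and 2.23 without. Replicate 1 with HGF lay above every unstimulated control for Map3k8 and lay within the range of the unstimulated controls for Ikbke. Of the adhesion genes, Icam1 was at 6.89, 3.40 and 10.96 with HGF and at 6.05, 11.18 and 3.44 without. Replicate 1 of either knockout group lay above every unstimulated control for Icam1, and replicate 2 with HGF and replicate 3 without lay below them all. Vcam1 was at 5.57, 4.59 and 7.77 with HGF and at 4.66, 8.31 and 5.09 without.

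To set the genes side by side, each knockout array was placed between the mean of the unstimulated controls (0) and that of the controls with HGF (1) for the 28 genes called with the control groups alone. This is a description, since the scale is set by those control arrays. The median place was 0.19, -0.05 and 1.00 in knockouts with HGF (replicates 1 to 3) and 0.00, 1.01 and -0.02 in unstimulated knockouts. On replicate 1 with HGF the genes were spread along the scale. It stood at 0.86 for Tnfrsf1a, 0.79 for Il1r1, 0.64 for Il1b, 0.53 for Map3k8, 0.50 for Bcl3 and 0.48 for Cd14. It stood at 0.19 for Tnfaip3, 0.13 for Nfkbia, 0.13 for Birc3, 0.10 for Relb, 0.00 for Rela and -0.49 for Irak2. On that array Tnfrsf1a and Il1r1 were thus near the level of the HGF-treated controls. The subunit genes and the inhibitors Nfkbia and Tnfaip3 were near that of the unstimulated ones. Other genes lay between these ends, among them Nfkbiz (0.42), Myd88 (0.41), Icam1 (0.36), Vcam1 (0.35), Il1a (0.33) and Nfkbib (0.24). Not every receptor gene was high there, since Tlr2 stood at 0.16. The other tumour necrosis factor receptor gene, Tnfrsf1b, is not among the 28. It was at 4.37 on that array, with means of 4.62 in controls with HGF and 4.05 in unstimulated controls. For Tnfrsf1a the control groups differed by only 0.77, and knockout replicate 2 with HGF stood at 0.31 and unstimulated replicate 1 at 0.24. With 1 such array, this order of the genes has no replicate.

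**Figure D4:**
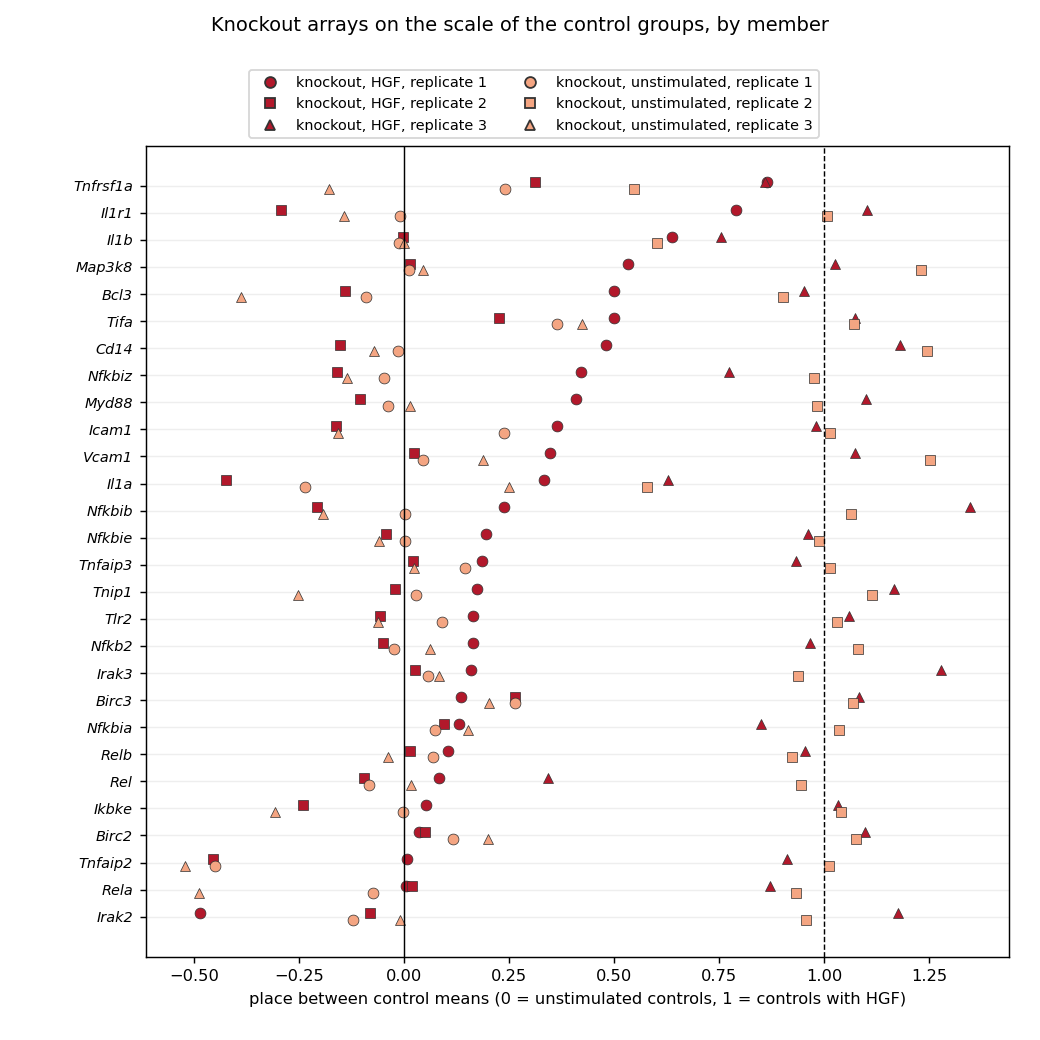
The place of each knockout array (6 arrays) on a scale where 0 is the mean of the 3 unstimulated controls and 1 the mean of the 3 controls with HGF, for the 28 genes called with the control groups alone, ordered by knockout replicate 1 with HGF (dark circles). That array runs from -0.49 for Irak2 to 0.86 for Tnfrsf1a, while knockout replicate 3 with HGF (dark triangles) and replicate 2 without it (light squares) lie around 1 for most genes, with Rel at 0.34 on replicate 3 with HGF.

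Without both knockout replicate 2 arrays, which leaves 2 knockout arrays per group, limma with all remaining arrays called 7 of the 34 genes as higher with HGF in knockouts and 0 as lower, where 2.12% of tested probe sets were called as higher. Il1r1 differed by 3.02 (SE 0.41, adjusted p = 0.00865 by limma), and by 0.73 with every array kept. The difference was 3.07 for Bcl3, 2.03 for Nfkbiz, 2.44 for Map3k8, 4.16 for Cd14, 0.64 for Tnfrsf1a and 1.94 for Myd88. With every array kept it was 0.94 for Bcl3, 0.24 for Nfkbiz, 0.31 for Map3k8, 0.55 for Cd14, 0.37 for Tnfrsf1a and 0.38 for Myd88. Tnfaip3, which differed most in controls, was not called without these arrays (3.73, SE 1.46, adjusted p = 0.179); its remaining arrays with HGF were at 3.74 and 9.59. The arrays were left out with their values known, and the one labelled HGF was low and the unstimulated one high for these genes, so larger differences follow from the choice itself. With the knockout groups alone and without those arrays, limma called 0 of the 34, with 9 at an unadjusted p under 0.05.

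The knockout effect without HGF asks whether loss of Met in hepatocytes changes these transcripts at rest, and it shares its arrays with the HGF comparisons above. Over the 42 genes the median difference, knockout minus control, was 0.63, against -0.01 over all named probe sets, and 15 of the 42 differed by at least 1, against 0.938%. Unstimulated knockout replicate 2 was the high array in most of them. All 3 knockout arrays lay above all 3 controls for 6 of the 42 genes, Tifa, Tnfaip3, Birc2, Birc3, Nfkbia and Tnfrsf1b, against 5.7% of all named probe sets, and below them for 2, Irak1 and Traf6, against 9.55%. Limma called 0 of the 34 with all 4 groups, where 0.0299% of tested probe sets were called as higher and 0.0299% as lower; 2 of the 34 had an unadjusted p under 0.05. With the unstimulated groups alone it also called 0 of the 34, where 0.0299% of tested probe sets were called as higher and 0.0449% as lower. The largest differences were those of Tifa (3.67, SE 1.31, adjusted p = 0.336), Tnfaip3 (3.08, SE 2.07) and Icam1 (2.41, SE 1.98). Without both knockout replicate 2 arrays they were 2.33 for Tifa, 0.65 for Tnfaip3 and 0.26 for Icam1, and limma called 0 of the 34.

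On the unstimulated groups alone and without knockout replicate 2, limma called 1 gene of the list as higher in knockouts and 1 as lower, against 3.14% and 2.75% of tested probe sets, so the members' share was near this background. Birc3 was higher (0.92, SE 0.13, adjusted p = 0.0174), and Tnfaip2 was lower (-1.48, SE 0.13, adjusted p = 0.00684). This compares 2 knockout arrays with 3 controls. With replicate 2 kept, Tnfaip2 differed by 0.04 and Birc3 by 2.01, and neither was called.

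With HGF, most of the genes had lower means in knockouts than in controls, with wide error. The median difference over the 42, knockout minus control, was -1.56, against 0.01 over all named probe sets. Limma called 0 of the 34 with all 4 groups and 0 with the HGF groups alone, where 0.015% of tested probe sets were called as higher and 0% as lower; 8 of the 34 and 11 of the 34 had an unadjusted p under 0.05. The largest differences were those of Tnfaip3 (-4.85, SE 2.07), Tlr2 (-4.01, SE 1.99), Icam1 (-3.999, SE 1.98) and Relb (-3.12, SE 1.30), with adjusted p of 0.509 (Relb) to 0.556 (Tlr2) by limma. With a pseudocount of 16 the difference of Relb was -2.06. With arrays weighted by their fit, limma called 11 of the 34 as lower (Nfkb2, Rel, Rela, Relb, Nfkbia, Nfkbie, Tnfaip3, Tlr2, Birc2, Birc3 and Ikbke), where 2.29% of tested probe sets were called as lower. The weights come from these same values and count arrays less that lie away from their group. Calls with weights can therefore follow from the weighting itself. All 3 knockout arrays lay below all 3 controls for 12 of the 42 genes, against 5.51% of all named probe sets. These were Rel, Rela, Relb, Nfkbia, Nfkbiz, Bcl3, Tnfaip3, Il1a, Tnfrsf1a, Traf2, Irak1 and Tlr4, which include 3 of the 4 measured subunits and 3 of the 5 IkappaB genes. For Tlr4, below the filter, and Irak1 the gap was small, with differences of -0.14 and -0.10. For Ly96 all 3 knockout arrays lay above the controls (0.28, SE 0.19), as did 7.06% of all named probe sets. Without both replicate 2 arrays the differences of Tnfaip3, Tlr2, Icam1 and Relb were -3.45, -2.55, -2.16 and -2.29, and limma called 0 of the 34.

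The interaction, which is the HGF effect in knockouts minus that in controls, tests whether the response depended on Met in hepatocytes. Limma called 0 of the 34 genes and 0% of tested probe sets with every array, and 14 of the 34 had an unadjusted p under 0.05. The estimates were negative and imprecise for the genes that differed most in controls: -7.94 for Tnfaip3 (SE 2.93, adjusted p = 0.402), -6.41 for Icam1 (SE 2.80), -6.33 for Tlr2 (SE 2.81) and -6.04 for Tifa (SE 1.85, adjusted p = 0.344). Without both knockout replicate 2 arrays limma called 0 of the 34, with Tnfaip3 at -4.10 (SE 1.88) and Tifa at -3.60 (SE 1.26). With arrays weighted by their fit, limma called 5 of the 34 as lower, Relb, Nfkbia, Tnfaip3, Tifa and Birc3, where 1.66% of tested probe sets were called as lower. These calls too can follow from weights set by the same values. A difference in the HGF response between the genotypes was therefore not shown by the unweighted fits.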

How the data were processed

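RNA from frozen liver was amplified in a single cycle with a biotin label and read on Affymetrix arrays, per the labels' protocols. The deposited intensity values are on a linear scale, as read from the values, with array medians of 6.75 to 7.03, and were made by the authors with GCRMA, per the submitters' processing notes; GCRMA brings arrays to a common distribution and compresses signals near background. No GCRMA version is given in the sources used here.

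Of the probe sets, 64 controls were left out and 16475 kept. After log2(intensity + 1), 6683 probe sets with a value of at least 4 on at least 3 arrays were tested, among them 34 of the 42 measured genes. The other 8, Tlr3, Tlr4, Cd40, Tnf, Ticam1, Traf1, Traf6 and Ikbkb, were described only. Since a gene could pass through the group where it was high, counts over the 42 are given beside those over the 34. Limma 3.58.1 in R 4.3.3 fitted a mean for each group, over all 4 groups and over the groups compared alone, with empirical Bayes moderation, two-sided tests and Benjamini-Hochberg adjustment over all tested probe sets, called under 0.05. The procedure was tested on simulated data with the same spread in every group. That simulation does not cover the unequal spread of these genes between the genotypes. Precision is limited by having 3 arrays per group. The p-values set each difference against the spread between these arrays. With all 4 groups that spread is shared by both genotypes, so it is not that of the control arrays alone. The members, the lists and the alternatives were chosen with earlier results of these data known. Array values are given for genes called in a comparison by either fit, up to 24 by size of the HGF effect in controls, and for the subunits. Of the wider set, at most 6 called genes were named.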

Additional observations from a re-analysis of the deposited data

How the results depend on the processing

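Counts of called probe sets moved between the settings. For the HGF effect in controls, limma called 27 of 6683 with all arrays, 801 with the control groups alone, 1353 with array weights, 545 without both knockout replicate 2 arrays, 41 with a pseudocount of 16, 13 without the filter and 0 with a replicate block or without the 2 arrays whose description has an added letter. With single arrays left out it was 0 to 317. Of the 34 tested members it called 0 with all arrays, 28 with the control groups alone, 29 with array weights and 26 without both knockout replicate 2 arrays, and 0 to 20 with single arrays left out, 20 without unstimulated knockout replicate 2, 6 without HGF knockout replicate 3 and 2 without HGF knockout replicate 2. With the control groups alone and single arrays left out, 371 to 979 probe sets were called.

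For the HGF effect in knockouts, 0 probe sets and 0 members were called in every setting run but that without both knockout replicate 2 arrays (278 and 7). For the knockout effect without HGF, the 4 probe sets were 637 with array weights, 180 without both knockout replicate 2 arrays, 394 with the unstimulated groups alone and without replicate 2, 1 with a replicate block, with the robust trend or without the lettered arrays, and 1 to 9 with single arrays left out; 1 member was called with array weights (Ikbkg, lower) and 2 with those groups alone and without replicate 2. For the knockout effect with HGF, 1 probe set was called with all arrays, 290 with array weights, 2 without both knockout replicate 2 arrays and 1 to 3 with single arrays left out, and 11 members were called, all lower, with array weights. For the interaction, 0 were called with all arrays, 268 with array weights, 24 without both replicate 2 arrays and 0 to 1 with single arrays left out, with 5 members under array weights. The median SD of the 42 measured genes was 1.47 and 1.38 in the knockout groups and 0.27 and 0.16 in the control groups. The cause of these moves was not tested.

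Some single differences changed sign. In controls, Ly96 (-0.0078 with all arrays) was 0.068 with array weights and -0.14 to 0.13 with single arrays left out, Irak1 (0.0040) was -0.010 with median centring, -0.023 with array weights and -0.023 to 0.029, and Ikbkg (0.16) was -0.0063 without the lettered arrays and -0.0063 to 0.40. In knockouts, the HGF difference of Tnfaip3 (-0.11) was 0.41 with array weights, 3.73 without both replicate 2 arrays and -2.28 to 2.32 with single arrays left out, and that of Rel (-0.45) was 0.21, 0.61 and -0.92 to 0.36. Without the lettered arrays that of Cd14 was -0.54, of Myd88 -0.00992, of Map3k8 -0.31 and of Nfkbiz -0.35, and with single arrays left out they were -1.06 to 2.60, -0.42 to 1.21, -0.51 to 1.61 and -0.40 to 1.29, with -0.11 to 1.95 for Il1r1. The knockout effect without HGF on Tnfaip2 (0.04) was -1.07 with array weights, -1.48 without both replicate 2 arrays, where the fit on the unstimulated groups alone called it, and -1.48 to 0.86 with single arrays left out.

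With a replicate block, 0 members were called in any comparison. For the HGF effects and the interaction, the blocks took same-numbered arrays of a genotype as pairs. For the knockout effects they were the replicate numbers over both genotypes. In all other fits the numbers were not taken as pairs. Same-numbered arrays of a genotype also stood next to each other in array order, and their deviations from the group means correlated at 0.10, 0.18 and 0.05 between the control groups and at 0.12, -0.83 and -0.70 between the knockout groups. With a pseudocount of 16 the HGF difference in knockouts was 0.30 for Cd14, 0.036 for Map3k8 and 0.13 for Nfkbiz, the knockout effect with HGF was -1.07 for Rel and 0.16 for Ly96, and the interaction was -2.995 for Relb.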
